A study of Mus musculus with 11 samples.

Results

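The Fc gamma receptor genes of the mouse were examined in whole neonatal skin after depletion of regulatory T cells (Tregs). The family was taken by name, as 6 of the 49315 rows of the gene table: the activating receptors Fcgr1, Fcgr3 and Fcgr4, the inhibitory receptor Fcgr2b, the signalling chain Fcer1g, and Fcgrt, which encodes the neonatal Fc receptor. All 6 passed the filter on low counts, which kept 18375 genes for testing.

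Fc gamma receptors bind the constant part of IgG on the surface of macrophages, monocytes, neutrophils, mast cells and natural killer (NK) cells, and so let these cells respond to antibody-coated particles and immune complexes. The activating receptors signal through the tyrosine motifs (ITAMs) of the FcR gamma chain, the product of Fcer1g, while Fcgr2b carries an inhibitory motif (ITIM) in its own tail and recruits the phosphatase encoded by Inpp5d. The relative amount of activating and inhibitory receptors on a cell sets how readily it responds to immune complexes, and both arms are known to respond to cytokines. Fcgrt is different in kind, since its product pairs with beta-2 microglobulin (B2m) inside cells and returns IgG to the surface or carries it across cell layers.

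All mice were Foxp3-DTR animals, in which cells that express Foxp3 carry the receptor for diphtheria toxin (DT), and bulk RNA sequencing was done on a biopsy of whole skin from each. The 2 control mice received PBS. DT was given at 30 ng per g of body weight to 3 ΔETreg mice on postnatal days (P) 6 and 8 with harvest on P9, to 3 ΔLTreg mice on P10 and P12 with harvest on P13, and to 3 ΔTreg mice as 4 doses from P6 to P12 with harvest on P13. The labels give no harvest day for the control mice, although the study speaks of age-matched groups, and 1 pair of control libraries, counted as 2 mice, is shared by all comparisons with control. The toxin was given to no control mouse, so that an effect of DT itself and of Treg loss cannot be told apart in comparisons with control. ΔTreg and ΔLTreg mice were both given DT and had the same harvest day, but differed in the number of doses and the day of the first dose. The amount of DT, the length of depletion and the early loss of Tregs cannot be told apart between them.

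Total counts ranged from 23377571 to 34159435 per library. Foxp3 was counted 14 to 20 times in control, 10 to 16 in ΔETreg, 13 to 23 in ΔLTreg and 9 to 19 in ΔTreg libraries. Its transcripts thus overlapped between control and depleted skin, and were too low to judge depletion. The study reports efficient depletion of skin Tregs by flow cytometry, on P9 for ΔETreg and on P13 for ΔLTreg mice. The tissue label was checked against 8 keratinocyte and fibroblast genes, all of which were detected in every library and which summed to between 17378 and 30258 CPM, the field's unit for a count scaled to the size of its library. Of these 8 genes 4 fell and 1 rose in ΔTreg against control by the edgeR test (median log2 fold change -0.61), with sums of 28224 and 25005 CPM in control and 18415 to 19459 CPM in ΔTreg mice, and 1 ΔETreg mouse was as low (19175 CPM). The part of this shift in the receptor levels was not tested.

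Coordinates are those of GRCm38, the build of the counts. Fcgr2b (chr1:170958617-170976547, minus strand), Fcgr4 (chr1:171018920-171029761, plus strand), Fcgr3 (chr1:171051174-171064935, minus strand) and Fcer1g (chr1:171229572-171234365, minus strand) are neighbours on chromosome 1. Fcgr1 lies at chr3:96282909-96293969 (minus strand) and Fcgrt at chr7:45092990-45103851 (minus strand), and all 6 are annotated as protein-coding. Fcgr3 and Fcgr2b encode receptors with similar outer parts, and of all stretches of 75 bases in the exons of Fcgr3, 5.42% also occurred in Fcgr2b. For Fcgr2b, 5.43% of such stretches occurred in some other gene, of which Cplx2 shared the most (2.13%) and not Fcgr3. No stretch of Fcgr1, Fcgr4, Fcer1g or Fcgrt occurred in another gene. An antisense gene, Gm38204, covers 2.68% of the exon bases of Fcgr2b but had no more than 1 count in any library.

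The 250 bases before each RefSeq start (GRCm38.p6) were searched on both strands. The letters sought are known from genes that respond to interferon and from myeloid genes. These were the gamma-activated sequence (GAS, TTCNNNGAA), the core of the interferon-stimulated response element (ISRE, GAAA and again GAAA after a gap of 2 bases) and a site for the myeloid factor PU.1 (GAGGAAG). Fcgr1 held a GAS match 109 to 101 bases before its start and a PU.1 match on the other strand 56 to 50 bases before it. Fcgr4 held an ISRE match 73 to 64 bases before its start and a PU.1 match on the other strand 23 to 17 bases before it. The stretches of these 2 genes, the only members with a GAS or ISRE match in the window, are written in the direction of transcription. Matched letters are in capitals. Fcgr1 covers chr3:96293970-96294219, minus strand, and Fcgr4 covers chr1:171018676-171018919, plus strand.
Fcgr1: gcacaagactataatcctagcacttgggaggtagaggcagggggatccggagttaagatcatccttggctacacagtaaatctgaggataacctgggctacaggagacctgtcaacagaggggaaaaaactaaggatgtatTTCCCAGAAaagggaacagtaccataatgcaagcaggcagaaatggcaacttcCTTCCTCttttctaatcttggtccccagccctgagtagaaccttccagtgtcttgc
Fcgr4: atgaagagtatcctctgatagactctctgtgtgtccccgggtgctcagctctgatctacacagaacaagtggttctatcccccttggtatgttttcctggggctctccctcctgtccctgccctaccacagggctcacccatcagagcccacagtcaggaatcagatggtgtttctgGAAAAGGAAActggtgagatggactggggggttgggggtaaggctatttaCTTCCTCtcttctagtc
Fcgr3 held only a PU.1 match, 16 to 10 bases before the downstream and 7 to 1 bases before the upstream of its RefSeq starts. Fcgr2b, Fcer1g and Fcgrt held none of these letters in the window. The windows of Fcgr2b and Fcgr3 lie inside these genes as placed above, and 187 bases of the Fcgr2b window are in its exons. The bases before the outermost annotated start of either gene were not searched. Of 32851 RefSeq promoter windows of the same length, 7.02% held GAS, 2.98% ISRE and 10.6% PU.1. A match is a description of the letters and not evidence that a factor binds there.

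The 4-dose ΔTreg regimen was compared with control first, since its doses spanned the whole window. Transcripts of both kinds of receptor were higher in ΔTreg skin, with the inhibitory receptor Fcgr2b raised 7.61-fold, the low-affinity activating receptor Fcgr3 raised 4.12-fold and Fcgr4 raised 15.5-fold from a low level. In all, 5 of the 6 genes rose at an adjusted p under 0.05 in the quasi-likelihood test of edgeR (Benjamini-Hochberg adjustment over all genes tested), while 12.1% of all genes tested rose by that rule. The median log2 fold change of the 6 genes was 1.90, beside -0.01 over all genes tested. In bulk tissue, more cells that carry a receptor and more RNA of it in each cell cannot be told apart.

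**Figure D1:**
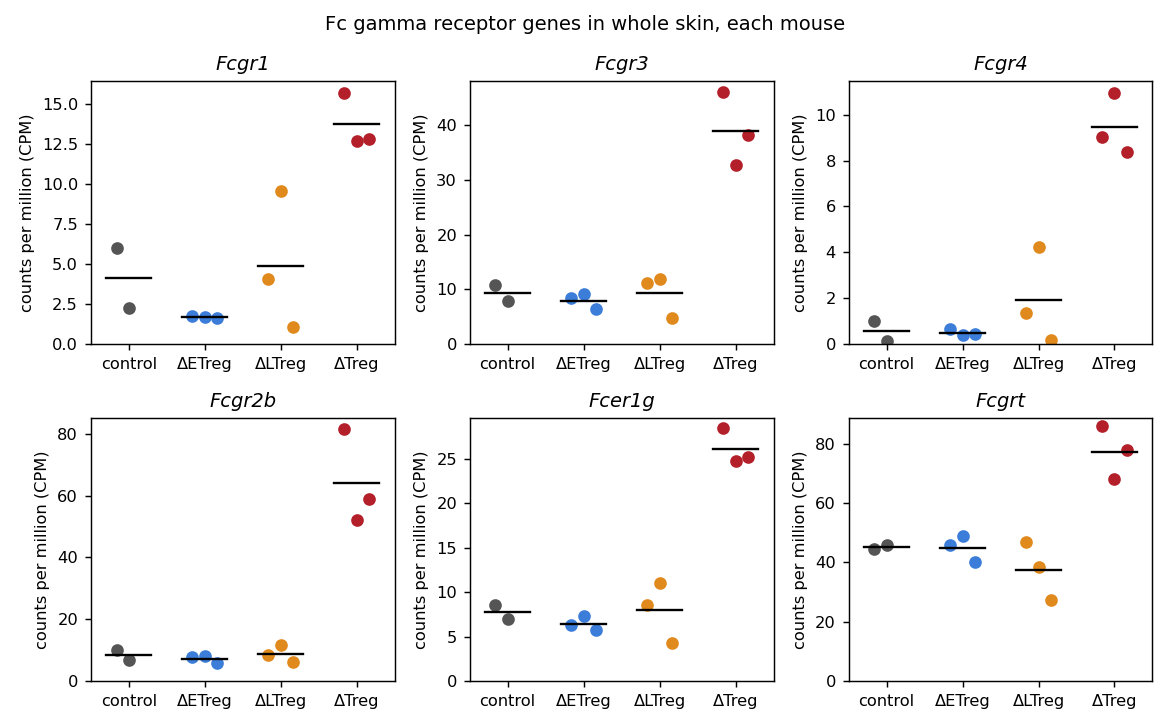
CPM of each Fc gamma receptor gene (vertical axis, from 0) in each mouse (points) of the control, ΔETreg, ΔLTreg and ΔTreg groups, with the group mean as a line. The 3 ΔTreg mice lie above every other mouse for each gene, and the ΔLTreg mice are spread for Fcgr1 (1.10 to 9.57 CPM) and Fcgr4 (0.188 to 4.23 CPM).

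Fcgr3 encodes the low-affinity activating receptor that binds immune complexes on most myeloid cells and on NK cells. Its level was 10.9 and 7.93 CPM in the 2 control mice, and 46.0, 32.8 and 38.1 CPM in the 3 ΔTreg mice. The lowest ΔTreg mouse was thus well above the highest control mouse. The log2 fold change was 2.04 (standard error (SE) 0.326), with an adjusted p of 0.00124 from edgeR.

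Fcgr4 encodes an activating receptor of monocytes, macrophages and neutrophils. Only 29 and 4 reads were counted in control skin (1.02 and 0.159 CPM), against 211, 368 and 271 reads in ΔTreg skin (9.05, 10.9 and 8.38 CPM). The ΔTreg mice were close to each other, whereas the control mice differed 6.37-fold and the ΔLTreg mice, which share the fit, 22.5-fold. The log2 fold change was 3.95 (SE 0.869, edgeR adjusted p 0.00809). Its size rests on which control mouse is used, at 5.85 without control mouse 1 (edgeR adjusted p 0.0210) and 3.21 without control mouse 2 (adjusted p 0.0836).

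Fcgr1 encodes the high-affinity activating receptor, which can hold monomeric IgG and is typical of monocytes and macrophages. It was measured at 5.99 and 2.23 CPM in control and at 15.7, 12.7 and 12.8 CPM in ΔTreg skin. The groups did not overlap, but the control mice differed 2.68-fold and the ΔLTreg mice, which share the fit, 8.73-fold. The log2 fold change of 1.72 (SE 0.622) had an edgeR adjusted p of 0.0723, which missed the threshold. The same fold passed with DESeq2 (adjusted p 0.00491), with edgeR on the libraries of these 2 groups alone (adjusted p 0.00895) and with sex as a covariate (adjusted p 0.0396).

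Fcgr2b, the only inhibitory receptor of the family, is carried by myeloid cells, mast cells and B cells. It stood at 9.98 and 6.81 CPM in control and rose to 81.5, 52.2 and 59.1 CPM in ΔTreg skin. No other member had as small a p in this comparison, with a log2 fold change of 2.93 (SE 0.280, edgeR adjusted p 4.43e-05). Reads that map to more than 1 place did not enter the table. Whether reads from the stretches shared with Fcgr3 were lost in this way was not examined.

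Fcer1g, whose product the activating receptors need for signalling and for reaching the cell surface, was at 8.55 and 6.93 CPM in control and at 28.4, 24.7 and 25.2 CPM in ΔTreg skin. The groups were far apart, and it rose by 1.75 on the log2 scale (SE 0.287, edgeR adjusted p 0.00144). Fcgrt, the receptor that rescues IgG from breakdown, was the most abundant member and changed least. It had 44.7 and 45.8 CPM in control and 85.9, 68.1 and 77.9 CPM in ΔTreg skin. The log2 fold change of Fcgrt was 0.77 (SE 0.181, edgeR adjusted p 0.0116), and it lost the threshold without control mouse 1 (adjusted p 0.0621) or control mouse 2 (adjusted p 0.0758).

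ΔTreg skin was next set against ΔLTreg skin, which shares its harvest day and its last 2 doses and lacks the doses of P6 and P8. The ΔLTreg mice had 11.2, 11.8 and 4.76 CPM of Fcgr3 and 8.52, 11.5 and 6.26 CPM of Fcgr2b, scattered on both sides of the control mice. Fcgr2b was 7.36-fold higher in ΔTreg (log2 fold change 2.88, SE 0.236, edgeR adjusted p 1.75e-05) and Fcgr3 4.22-fold higher (2.08, SE 0.280, adjusted p 0.000491). Fcer1g (log2 fold change 1.72, SE 0.246) and Fcgrt (1.04, SE 0.160) were also higher in ΔTreg skin. In this comparison too, 5 of the 6 genes rose by the edgeR test, beside 10.7% of all genes tested.

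The other 2 activating receptors gave a less certain difference between ΔTreg and ΔLTreg skin. Fcgr4 was higher by 2.35 on the log2 scale (SE 0.630, edgeR adjusted p 0.0261), but not by DESeq2 (adjusted p 0.143) or edgeR on these 2 groups alone (adjusted p 0.0656). It also missed the threshold without ΔLTreg mouse 1 (edgeR adjusted p 0.0783) and without ΔTreg mouse 1, 2 or 3 (0.0650, 0.0798 and 0.0550). Fcgr1 differed by 1.51 (SE 0.530) with an edgeR adjusted p of 0.0766. It fell to 0.00516 without ΔLTreg mouse 2, the highest of its group for Fcgr1 (9.57 CPM).

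Against ΔETreg skin, taken 4 days earlier, all 6 genes were higher in ΔTreg skin by the edgeR test, beside 13.2% of all genes tested. The log2 fold changes were 3.00 for Fcgr1, 2.28 for Fcgr3, 4.24 for Fcgr4, 3.14 for Fcgr2b, 2.01 for Fcer1g and 0.78 for Fcgrt. Age and regimen differ together here and cannot be told apart.

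**Figure D2:**
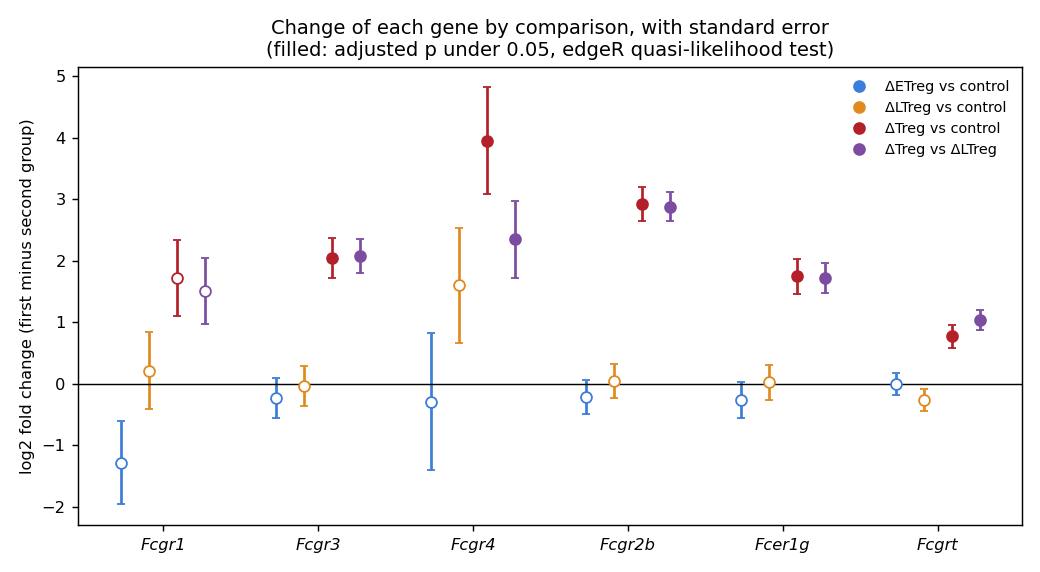
Log2 fold change (points) with its standard error (bars) for each Fc gamma receptor gene in 4 comparisons, filled where the edgeR adjusted p was under 0.05. The values of ΔETreg and ΔLTreg against control are all open, and those of ΔTreg are filled for every gene but Fcgr1.

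After early depletion no receptor gene passed the test. Of the 6 genes, 0 passed adjustment in ΔETreg against control by edgeR, and 0 had an unadjusted p under 0.05 or passed with DESeq2, beside 0.00544% of all genes with adjustment and 4.75% without. Fcgr2b was at 7.80, 7.95 and 5.91 CPM in the 3 ΔETreg mice and Fcgr3 at 8.39, 9.10 and 6.43 CPM, overlapping control. The log2 fold changes of Fcgr2b (-0.22, SE 0.276), Fcgr3 (-0.24, SE 0.325), Fcer1g (-0.26, SE 0.289) and Fcgrt (-0.01, SE 0.179) were all smaller than their standard errors, and so was that of Fcgr4 (-0.29, SE 1.11).

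Fcgr1 was the exception in spread. The 3 ΔETreg mice had 1.78, 1.71 and 1.63 CPM, a 1.09-fold range, and all lay under both control mice. The log2 fold change was -1.28 (SE 0.675), with an unadjusted p of 0.0851 from edgeR. After adjustment over all genes the p was 0.9998 from edgeR and 0.854 from DESeq2, so the difference was not called. The log2 fold change was -0.39 without control mouse 1 and -1.81 without control mouse 2.

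Late depletion gave a scattered picture. In ΔLTreg against control, 0 of the 6 genes passed adjustment by edgeR, 0 had an unadjusted p under 0.05 and 0 passed with DESeq2, beside 4.55% of all genes with adjustment and 20.2% without. Fcgr1 was at 4.05, 9.57 and 1.10 CPM and Fcgr4 at 1.37, 4.23 and 0.188 CPM in the 3 ΔLTreg mice. Mouse 2 was above and mouse 3 below both control mice for Fcgr1, and the range over the 3 mice was 8.73-fold for Fcgr1 and 22.5-fold for Fcgr4. Fcer1g (286, 280 and 138 counts) and Fcgrt (46.9, 38.6 and 27.4 CPM) were also lowest in mouse 3, which had a larger library than mouse 2.

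The same mouse was lowest of the group in transcripts of several cell types. A list of 5 genes carried by all leukocytes summed to 71.2, 94.9 and 42.7 CPM in ΔLTreg mice 1, 2 and 3, and 10 macrophage and monocyte genes to 162, 235 and 109 CPM. The 6 mast cell genes summed to 168, 180 and 111 CPM, and the 8 keratinocyte and fibroblast genes to 23716, 25226 and 17378 CPM. The part of cell content in the spread of the receptors was not tested. Between ΔLTreg and ΔETreg skin, 0 of the 6 genes passed adjustment by edgeR or DESeq2 and 2 (Fcgr1 and Fcgr4) had an unadjusted p under 0.05, beside 6.38% and 22.7% of all genes. Without ΔLTreg mouse 3, 3 genes were higher in ΔLTreg than in ΔETreg skin by the edgeR test, beside 3.36% of all genes that were higher without that mouse. These were Fcgr1 (log2 fold change 1.96, adjusted p 0.0198), Fcgr4 (2.44, adjusted p 0.0302) and Fcer1g (0.58, adjusted p 0.0364). Mouse 3 was the lowest ΔLTreg mouse for each of these 3 genes (1.10, 0.188 and 4.32 CPM). Leaving it out could only raise the ΔLTreg mean, so these calls are no support for a rise.

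The balance of activating to inhibitory receptor was then read within each mouse, as the ratio of the 2 genes' counts, which does not depend on how libraries are scaled. A ratio is compared between groups only, since genes differ in length. Fcgr3 to Fcgr2b was 1.09 and 1.16 in the control mice and between 1.08 and 1.14 in ΔETreg mice. It was 0.564 to 0.645 in the 3 ΔTreg mice, so that every ΔTreg mouse lay below every mouse of the other groups, including ΔLTreg (0.760 to 1.31). The mean log2 ratio was lower by 0.88 in ΔTreg than in control, a factor of 0.542. Its p in a two-sided exact permutation test was 0.1, the smallest that 3 mice against 2 allow, and 0.257 after adjustment over 18 such tests, so no ratio could pass.

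In ΔTreg against control, the other activating receptors moved in opposite directions relative to Fcgr2b. Fcgr4 to Fcgr2b was 0.0234 and 0.102 in control and 0.111 to 0.209 in ΔTreg mice, higher by 1.61 on the log2 scale with the same p of 0.1 in the exact permutation test. The ΔLTreg mice spanned 0.0300 to 0.367 and overlapped every group. Fcgr1 to Fcgr2b was 0.327 and 0.600 in control, 0.215 to 0.275 in ΔETreg and 0.193 to 0.243 in ΔTreg mice. The difference of that ratio between ΔTreg and control was -1.03 on the log2 scale, with a p of 0.1 in the exact permutation test. Between ΔTreg and ΔETreg it was -0.14 (exact permutation p 0.5), within the spread of the mice. ΔLTreg mice spanned 0.175 to 0.830.

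Fcer1g, read against Fcgr2b in the same way, went from 0.856 and 1.02 in control to between 0.349 and 0.474 in ΔTreg mice. The counts of the 3 activating receptors per kilobase were also summed and divided by that of Fcgr2b. This sum had a mean of 5.09 in control (SD 0.515, n = 2) and of 3.24 in ΔTreg mice (SD 0.392, n = 3). The mean was 4.53 for ΔETreg (SD 0.0434) and 5.41 for ΔLTreg (SD 2.07), both with n = 3.

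**Figure D3:**
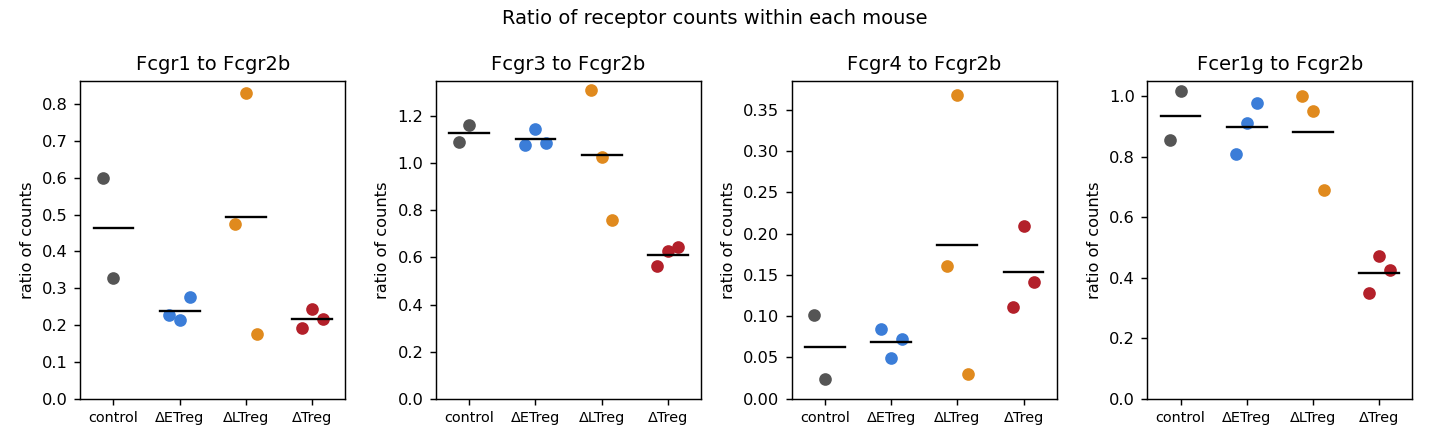
Ratio of the counts of Fcgr1, Fcgr3, Fcgr4 and Fcer1g to those of Fcgr2b (vertical axes, from 0) in each mouse (points) by group, with the group mean as a line. For Fcgr3 and Fcer1g the ΔTreg mice (0.564 to 0.645 and 0.349 to 0.474) lie below all other mice, while for Fcgr4 they overlap the ΔLTreg mice.

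Levels of different members were compared per kilobase of exon. In control skin the order by mean CPM per kilobase was Fcgrt (21.5, SD 0.390), Fcer1g (8.85, SD 1.31), Fcgr3 (5.42, SD 1.21), Fcgr1 (1.59, SD 1.03), Fcgr2b (1.45, SD 0.387) and Fcgr4 (0.468, SD 0.482). The first 3 places were separate from each other, whereas Fcgr1 and Fcgr2b did not differ beyond their spread. In ΔTreg skin it was Fcgrt (36.8, SD 4.24), Fcer1g (29.9, SD 2.31), Fcgr3 (22.4, SD 3.82), Fcgr2b (11.1, SD 2.64), Fcgr4 (7.52, SD 1.05) and Fcgr1 (5.31, SD 0.653). Fcgr1 thus held the last place and Fcgr2b the place behind Fcgr3, with Fcgrt and Fcer1g touching in range (32.4 and 32.5) and the other neighbours apart. In ΔETreg and ΔLTreg skin the first 3 places were taken by the same genes, and in ΔLTreg skin Fcgr1 (1.89, SD 1.66), Fcgr4 (1.54, SD 1.66) and Fcgr2b (1.51, SD 0.456) did not differ beyond their spread. The exons of Fcgr2b sum to 5790 bases over all its isoforms, more than its longest coding transcript (3544 bases), and with that length its mean was 2.37 CPM per kilobase in control and 18.1 in ΔTreg skin, behind Fcgr3 in both.

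Genes of the cells that carry the receptors moved as well. Of 10 macrophage and monocyte genes, 4 rose in ΔTreg against control by the edgeR test, and the 10 summed to 178 and 240 CPM in control and to 393 to 532 CPM in ΔTreg mice, with none at 0. Adgre1, the F4/80 antigen, rose (log2 fold change 1.37, SE 0.410, edgeR adjusted p 0.0357). Csf1r, the receptor for the macrophage growth factor, had a log2 fold change of 0.72 (SE 0.254) with an edgeR adjusted p of 0.0680. The 5 genes of all leukocytes all rose, from a sum of 59.2 and 84.8 CPM to between 203 and 281 CPM, with Ptprc (CD45) up by 1.91 (SE 0.243, edgeR adjusted p 0.000301).

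Against these genes, Fcgr2b and Fcgr3 gave different ratios. The count of Fcgr2b per count of Csf1r was 0.155 and 0.198 in control and 0.698 to 0.996 in ΔTreg mice, and that of Fcgr3 was 0.180 and 0.216 in control and 0.450 to 0.562 in ΔTreg mice. Per count of Adgre1, Fcgr2b went from 0.504 and 0.599 to between 1.34 and 1.93, and Fcgr3 from 0.587 and 0.653 to between 0.867 and 1.09. The ΔLTreg mice reached 1.28 for Fcgr2b to Adgre1, and for Fcgr3 to Adgre1 they spanned 0.615 to 1.05 and overlapped ΔTreg mice. Per count of Ptprc, Fcgr2b was 0.626 and 0.718 in control and 1.24 to 1.56 in ΔTreg mice. Fcgr3 per Ptprc was 0.729 and 0.783 in control and 0.798 to 0.879 in ΔTreg mice, and reached 0.795 in ΔETreg mice. Fcgr2b was therefore higher relative to each of the 3 genes, while the ratio of Fcgr3 to Ptprc lay only a little above control, without overlap. These ratios were not tested, and they depend on the genes picked. Other macrophage and monocyte genes moved by unlike amounts. Mertk had a mean of 23.5 CPM in control and 24.0 CPM in ΔTreg skin, and Mrc1 of 39.4 and 162 CPM. No ratio to those genes was taken.

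**Figure D4:**
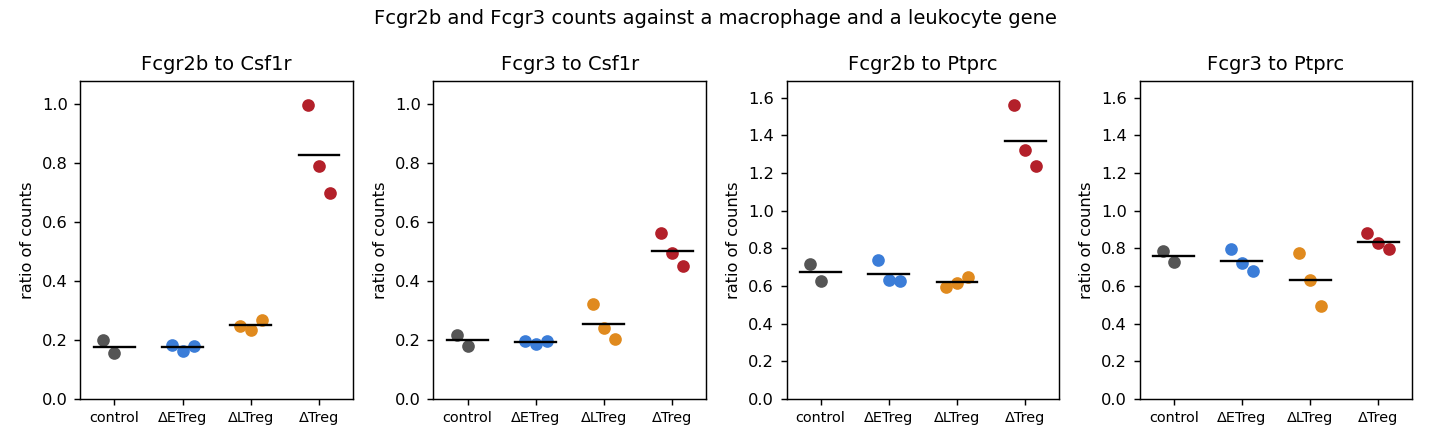
Counts of Fcgr2b and Fcgr3 per count of Csf1r (a macrophage gene) and of Ptprc (a gene of all leukocytes), in each mouse (points) by group with the mean as a line. The Fcgr2b ratios of ΔTreg mice (0.698 to 0.996 and 1.24 to 1.56) stand above all other mice, and the ratio of Fcgr3 to Ptprc (0.798 to 0.879) lies a little above control (0.729 and 0.783).

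Other carriers of these receptors were read from their own genes. Of 8 neutrophil genes 5 were tested and all 5 rose, the list summing to 13.4 and 14.2 CPM in control and 32.8 to 41.1 CPM in ΔTreg mice. Most of that sum came from S100a8 (mean 9.49 CPM in control and 15.3 CPM in ΔTreg skin) and S100a9 (1.91 and 9.98 CPM). Ly6g, Mpo and Elane were too low to test. Of 5 NK cell genes 4 were tested and rose, from sums of 0.770 and 0.956 CPM to between 22.2 and 25.7 CPM. Gzma and Prf1 in that list are also made by cytotoxic T cells, and all 5 T cell genes rose too, with Cd3e up by 1.56 (SE 0.201, edgeR adjusted p 0.000320).

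B cell genes overlapped with control in their sum, and mast cell genes were slightly below it. The 5 B cell genes, for a cell type in which Fcgr2b is the main Fc receptor, summed to 0.518 and 0.806 CPM in control and to 0.713 to 1.02 CPM in ΔTreg mice, with 3 of them, Ms4a1 and Pax5 included, too low to test and 0 of the other 2 past the edgeR threshold. The 6 mast cell genes summed to 209 and 218 CPM in control and 173 to 204 CPM in ΔTreg mice. Among them Hdc, the enzyme that makes histamine, rose from 5.46 to 19.7 CPM (log2 fold change 1.84, SE 0.271, edgeR adjusted p 0.000745), Kit fell by 0.51 on the log2 scale (SE 0.0928, edgeR adjusted p 0.00270), and the mast cell proteases Cma1 (log2 fold change -0.40, SE 0.262) and Mcpt4 (-0.04, SE 0.234) did not pass the test. Of 7 dendritic and Langerhans cell genes 2 rose and Cd207 (langerin) fell by 1.52 on the log2 scale (SE 0.189, edgeR adjusted p 0.000251). Of 6 endothelial genes, for cells that are rich in Fcgrt, 2 rose and 2 fell in ΔTreg skin, Pecam1 by 0.69 (SE 0.0470) upwards and Cdh5 with a log2 fold change of -0.36 (SE 0.0701). The part of any of these cells in the receptor levels was not tested.

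Genes that act behind the activating receptors rose with them in ΔTreg skin. Of 17 genes from the kinases to the cytoskeleton, 13 rose and 0 fell in ΔTreg against control by the edgeR test (median log2 fold change 1.36, beside -0.01 over all genes). Rac2, a small GTPase of phagocytosis, went from a mean of 5.19 to 25.8 CPM (log2 fold change 2.31, SE 0.313, adjusted p 0.000440). Lcp2, the adaptor SLP-76, went from 3.26 to 15.8 CPM (2.26, SE 0.297, adjusted p 0.000358). The kinase Syk, which docks on phosphorylated ITAMs, rose by only 0.46 (SE 0.131, edgeR adjusted p 0.0294), and it is also present in other skin cells.

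The phagocyte NADPH oxidase, which makes the oxidative burst after receptor binding, rose in all 5 of its measured genes. Cybb, its catalytic subunit, changed by 1.70 (SE 0.524, edgeR adjusted p 0.0399) and Ncf1, a cytosolic subunit, by 1.70 (SE 0.196, adjusted p 0.000156). Of 8 genes of the inhibitory arm 5 rose and 0 fell (median log2 fold change 0.50). Inpp5d, the phosphatase that Fcgr2b recruits, rose by 1.22 (SE 0.232, edgeR adjusted p 0.00351), Dok2 by 1.58 (SE 0.276, adjusted p 0.00207) and Ptpn6, the phosphatase SHP-1, by 0.63 (SE 0.0959, adjusted p 0.000954).

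Receptors that share the FcR gamma chain with the Fc gamma receptors were few in reads. Of 8 such genes 6 were tested and 4 rose in ΔTreg against control, among them Clec4n (dectin-2), from 2.58 to 6.28 CPM (log2 fold change 1.27, SE 0.282, edgeR adjusted p 0.00827), and Clec4e (Mincle), from 0.230 to 1.85 CPM. The other ITAM adaptors Tyrobp (log2 fold change 1.12, SE 0.343) and Cd247 (1.13, SE 0.229) rose, as did Hcst, a related chain without an ITAM (1.49, SE 0.399). Fcer1g per Tyrobp was 0.935 and 0.942 in control, 1.12 to 1.38 in ΔETreg, 1.09 to 1.31 in ΔLTreg and 1.32 to 1.64 in ΔTreg mice. All groups given DT thus lay above control, and ΔETreg and ΔTreg mice overlapped.

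Other Fc receptor genes did not move as a block. Of 13, 7 could be tested, 2 rose and 1 fell in ΔTreg against control. Trim21, the antibody receptor of the cytosol, rose by 1.92 (SE 0.226, edgeR adjusted p 0.000179). Fcrlb, an Fc receptor-like gene, had 1 to 3 counts in control and 36 to 41 in ΔTreg mice (edgeR adjusted p 0.00144). Fcrls, another member of that branch, fell from a mean of 4.03 to 1.68 CPM (log2 fold change -1.26, SE 0.273, edgeR adjusted p 0.00737), and it was also below ΔLTreg skin (-1.15, SE 0.249, adjusted p 0.00896).

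Transcripts for the heavy chains of IgG, the ligand of the receptors, were few. Of 13 genes for antibody chains and pentraxins 5 passed the filter, and Ighg2b, Ighg2c and Ighg3 had at most 4 counts in any library. Ighg1 had 3 to 6 counts in control, 10 to 16 in ΔLTreg and 0 to 3 in ΔTreg mice, and was lower in ΔTreg than in ΔLTreg skin (edgeR adjusted p 0.00766). Ighm, the heavy chain of IgM, rose from 5.98 to 15.2 CPM in ΔTreg against control (log2 fold change 1.34, SE 0.185, adjusted p 0.000474). Ptx3, a pentraxin, rose from 2.71 to 5.23 CPM (log2 fold change 0.94, SE 0.293, edgeR adjusted p 0.0426). Ighm can be transcribed without a rearranged antibody gene, and reads were not assigned to parts of the locus here. The transcript of a receptor gives no measure of antibody in the tissue, since most neonatal IgG is of maternal origin.

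B2m, the partner chain of the neonatal Fc receptor and of MHC class I, left Fcgrt far behind. It was at 112 and 132 CPM in control, 123 to 132 in ΔETreg, 178 to 280 in ΔLTreg and 965 to 1070 CPM in ΔTreg mice. The change was 0.98 (SE 0.161, edgeR adjusted p 0.00773) in ΔLTreg and 3.07 (SE 0.177, adjusted p 1.95e-06) in ΔTreg skin against control. The ratio of Fcgrt to B2m counts was 0.337 and 0.410 in control, 0.311 to 0.372 in ΔETreg, 0.138 to 0.178 in ΔLTreg and 0.0653 to 0.0807 in ΔTreg mice. ΔLTreg mice thus stood apart from control in this ratio, while Fcgrt itself did not pass the test there (log2 fold change -0.27, SE 0.179, edgeR adjusted p 0.455).

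Cytokines and factors that are known to act on these genes were examined last. Interferon gamma is known to raise Fcgr1 and Fcgr4 in macrophages, and interleukin-4 to shift the balance towards the inhibitory receptor. Of 17 genes 15 were tested, 13 rose and 0 fell in ΔTreg against control. Ifng had 0 to 3 counts in control, 0 to 4 in ΔLTreg and 54 to 82 in ΔTreg mice (edgeR adjusted p 0.000769 against control). Irf1, a transcription factor induced by interferon, rose by 3.41 (SE 0.267, edgeR adjusted p 1.24e-05). Il13 went from a mean of 0.220 to 5.52 CPM (log2 fold change 4.60, SE 0.379, edgeR adjusted p 1.58e-05), while Il4 stayed at 0.964 and 0.947 CPM (-0.04, SE 0.257).

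In ΔLTreg skin, 3 of these 15 genes and 0 of the 6 Fc receptor genes rose against control, beside 1.86% of all genes tested. Among them were Irf1 (log2 fold change 1.09, SE 0.252, edgeR adjusted p 0.0365) and Cebpb (0.28, SE 0.0652, adjusted p 0.0351). The lists of activating signalling, the oxidase, inhibitory signalling and FcR gamma partners had 0 genes past the edgeR threshold in ΔLTreg or ΔETreg against control. Of all genes tested, 4.55% and 0.00544% passed in these 2 comparisons. At such low shares a count of 0 says little about a short list.

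**Figure D5:**
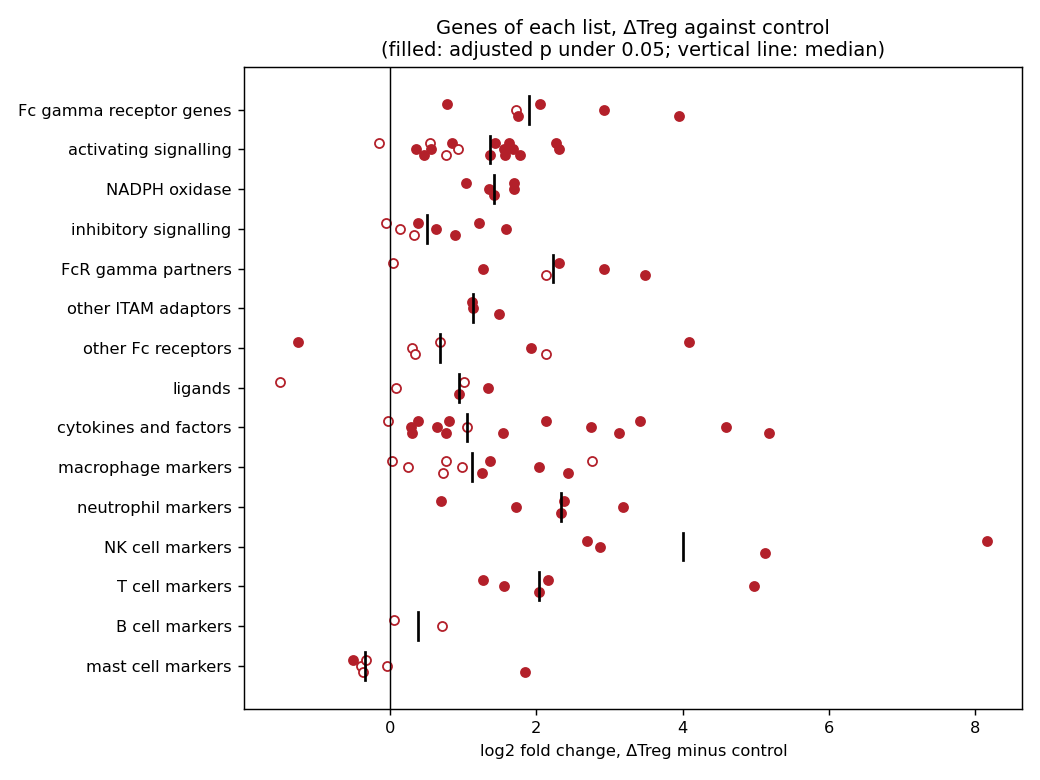
Log2 fold change in ΔTreg against control of each tested gene (points) of the Fc gamma receptor family and of 14 lists, filled where the edgeR adjusted p was under 0.05, with the median of a list as a vertical line. The receptor family has a median of 1.90, activating signalling 1.36, inhibitory signalling 0.50 and mast cell markers -0.35.

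For each receptor gene, the 3 genes whose log2 CPM followed it most closely over the 11 libraries were picked among 13896 genes with enough reads, as a description that is driven by the ΔTreg libraries. Fcgr2b was followed by Pdcd1lg2 (r = 0.995), Ncf1 (0.995) and Snx2 (0.995). Fcgr3 was followed by Arhgap45 (0.998), Tmem106a (0.997) and Cd37 (0.995), and Fcer1g by Hk3 (0.996), Lcp2 (0.996) and Cd37 (0.995). Over the 8 libraries without ΔTreg these values were 0.886 for Pdcd1lg2 with Fcgr2b, 0.983 for Arhgap45 with Fcgr3 and 0.977 for Hk3 with Fcer1g.

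Fcgr1 was followed by Mpeg1 (0.982), Slfn1 (0.978) and Slfn8 (0.975), and Fcgr4 by Themis2 (0.981), Pld4 (0.979) and Tifab (0.976). Without the ΔTreg libraries, Mpeg1 with Fcgr1 was at 0.961 and Themis2 with Fcgr4 at 0.958. These 8 libraries were among those used to pick the genes, so that such values are high in part by choice. Fcgrt was followed by Msn (0.981), Tll1 (0.980) and Crip1 (0.979). Among the members themselves, r over all libraries was 0.994 for Fcgr3 with Fcer1g and 0.759 for Fcgr1 with Fcgrt, and without ΔTreg it was 0.962 and 0.273. All points share the library and its composition of cells.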

How the data were processed

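Whole skin of 11 Foxp3-DTR mice was sequenced. As given in the labels and the study's methods, the authors ran Trimmomatic 0.36 for trimming, STAR 2.5.2b for mapping to GRCm38 and featureCounts of Subread 1.5.2 for counting unique reads on exons. They deposited these raw counts as 1 table without normalization. Strand setting and annotation release are not given in the sources used here. Replicate numbers follow the order of the samples and pair nothing, and p-values measure the spread between mice of a group.

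The 6 genes and all gene lists were chosen with earlier results of these data known. Genes were named by a rule (per list, the largest changes past the threshold with a mean of at least 50 counts, plus fixed partners and the first genes of each marker list). Hdc, Kit, Ly6g, Mpo, Elane, Pax5, Ighg2b, Ighg2c, Ighg3, Il4, Gzma and Prf1 fall outside it and were added with their values known. Values of some list genes are not reported here.

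Counts were fitted in R 4.3.3 with edgeR 4.0.16 (TMM, filterByExpr by group, 1 fit of all 11 libraries, glmQLFTest, Benjamini-Hochberg adjustment over 18375 genes, threshold 0.05). A standard error was taken as the size of the log2 fold change over the root of F. CPM uses TMM-scaled library sizes, and lengths are unions of GENCODE M21 exons (GRCm38); the longest coding transcript was added after seeing the data. 174 rows (0.353%) had no gene name. Log2 ratios of counts were compared by a two-sided exact permutation test. DESeq2 1.42.0, other scalings, filters, sex (from Xist and Ddx3y) as covariate, both groups alone and each mouse left out were alternatives. The tests were checked on simulated data.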

Additional observations from a re-analysis of the deposited data

How the results depend on the processing

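With 2 control mice and 3 mice in each other group, single mice decide several values, among them both control mice and ΔLTreg mice 2 and 3. Without control mouse 1, Fcgr3, Fcgr4 and Fcgr2b turned sign in ΔETreg against control. In ΔTreg against control, 5 receptor genes rose, and 3 to 5 with a mouse left out, the 3 without control mouse 2 (beside 6.41% of all genes that then rose). In ΔLTreg against ΔETreg, 0 were called, and 0 to 3 with a mouse left out. An edgeR fit of all genes, however low, called 1 in ΔETreg against control (Fcgr1), 1 in ΔLTreg against control (Fcgr4) and 2 in ΔLTreg against ΔETreg (Fcgr1 and Fcgr4), beside 0.151%, 5.01% and 6.08% of all genes in that fit, and the cause was not tested. Other calls that changed stand beside their results. Changes near 0 turned sign, none of which was called. For Fcgrt in ΔETreg against control the log2 fold change was 0.028 without TMM, 0.0037 with at least 10 counts in every library, 0.017 with sex as covariate and 0.0022 with both groups alone. In ΔLTreg against control it was -0.0087 for Fcgr2b and -0.055 for Fcer1g with sex as covariate.

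With each mouse left out, ΔETreg against control spanned -1.81 to -0.39 for Fcgr1, -0.44 to 0.014 for Fcgr3, -1.03 to 1.61 for Fcgr4, -0.46 to 0.090 for Fcgr2b and -0.075 to 0.067 for Fcgrt on the log2 scale. ΔLTreg against control spanned -0.67 to 1.11 for Fcgr1, -0.24 to 0.29 for Fcgr3, -0.20 to 0.35 for Fcgr2b and -0.26 to 0.33 for Fcer1g. ΔLTreg against ΔETreg spanned -0.0064 to 0.51 for Fcgr3 and -0.0091 to 0.58 for Fcer1g. The differences in log2 ratio to Fcgr2b spanned -0.079 to 0.014 for Fcgr3 and -0.60 to 1.52 for Fcgr4 in ΔETreg against control, -0.62 to 0.50 for Fcgr1 and -0.35 to 0.042 for Fcgr3 in ΔLTreg against control, -0.71 to 1.10 for Fcgr4 in ΔTreg against ΔLTreg, and -0.32 to 0.075 for Fcgr3 in ΔLTreg against ΔETreg. The lower Fcgr3 to Fcgr2b ratio of ΔTreg skin kept its direction against each group in all of these. A lone mouse left in a group is assumed to vary like the other groups. No paired analysis was possible because the labels give no replicate numbers and the mice were numbered by sample order only.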
